A study of Rattus norvegicus with 18 samples.

Results

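Claudins and occludin are the membrane proteins of tight junctions, and 10 of their genes were followed here in retina and RPE/choroid of rats: Cldn1, Cldn2, Cldn3, Cldn4, Cldn5, Cldn7, Cldn11, Cldn19, Cldn23 and Ocln. The rule takes them by symbol, and the set was drawn up with earlier results of these data known. All 10 have a row in both tissues, among 32899 genes listed in either tissue. In RPE/choroid the tables pair 9 of the 10 symbols with an identifier, and Cldn5 (ENSRNOG00000045811) was found through its retina values. Cldn2, Cldn3, Cldn4, Cldn7, Cldn19 and Cldn23 are also claudins that the study names from these same libraries, so their direction below is no independent evidence.

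Tight junctions seal the gap between neighbouring epithelial or endothelial cells, and the claudins a cell makes set which ions pass that seal. The retina lies behind a pair of such barriers. The outer barrier is the retinal pigment epithelium (RPE), a single layer of pigmented cells between photoreceptors and choroid, in which claudin-19 is a main claudin. The inner barrier is the endothelium of the retinal vessels, where claudin-5 is the main claudin, whereas the capillaries of the choroid are fenestrated. Claudin-3, claudin-4 and claudin-7 are claudins of many barrier epithelia, claudin-1 is needed for the barrier of the skin, and claudin-2 forms a pore for cations and water. Claudin-11 is the claudin of central myelin, and occludin, which is not a claudin, is found in most tight junctions.

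The promoters of 3 members are shown because Cldn3 and Cldn7 were high in the same RPE/choroid library while Cldn1 was low in it. Each line gives the 250 bases before the RefSeq start of the gene, 5′ to 3′ on the gene's strand, from the GRCr8 assembly. Capitals mark matches on either strand to the E-box bound by Snail and Zeb repressors (CACCTG) or to the GC box (GGGCGG).
Cldn3, chr12:27346548-27346797, minus strand: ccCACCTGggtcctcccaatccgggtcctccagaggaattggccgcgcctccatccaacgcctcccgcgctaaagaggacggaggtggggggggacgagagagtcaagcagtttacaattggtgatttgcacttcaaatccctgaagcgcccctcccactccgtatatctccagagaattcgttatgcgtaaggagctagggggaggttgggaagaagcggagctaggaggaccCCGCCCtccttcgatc
Cldn7, chr10:55188420-55188669, plus strand: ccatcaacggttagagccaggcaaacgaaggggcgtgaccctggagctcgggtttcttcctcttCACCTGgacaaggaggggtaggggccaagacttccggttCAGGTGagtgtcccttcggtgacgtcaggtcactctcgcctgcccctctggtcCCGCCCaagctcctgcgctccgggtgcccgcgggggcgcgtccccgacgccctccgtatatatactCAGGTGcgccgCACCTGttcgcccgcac
Cldn1, chr11:87926126-87926375, plus strand: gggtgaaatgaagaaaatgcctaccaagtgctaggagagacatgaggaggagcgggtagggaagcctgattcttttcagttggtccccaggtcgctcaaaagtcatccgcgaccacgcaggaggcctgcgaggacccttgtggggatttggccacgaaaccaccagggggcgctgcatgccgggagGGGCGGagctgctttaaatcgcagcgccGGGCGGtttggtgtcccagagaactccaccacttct

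The Cldn7 promoter held 4 matches to the E-box, and 10 of 33469 promoters held at least 4. Its bases were 65.6% G or C, where the median of all promoters was 51.2%. Promoters of like base makeup were not compared, so how rare 4 matches are among them was not tested. The Cldn3 promoter held 1, Ocln 2, and Cldn1, Cldn5, Cldn11 and Cldn19 none. Of all promoters, 15.9% held the E-box, 30.5% the GC box, 12.9% a TATA box (TATAAA), 6.34% an AP-1 site (TGANTCA) and 0.146% a grainyhead site (AACCGGTT), and matches to different motifs did not overlap in the 3 promoters shown. None of the 7 member promoters on hand held the TATA box, AP-1 or grainyhead letters. A match is a match of letters and not a measured site. Cldn3 and Cldn4 are neighbours on chromosome 12 of that assembly, with 2 pseudogenes and no protein-coding gene between them.

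The study asked how aging and 8-aminoguanine (8-AG), a purine, change the transcriptome of retina and RPE/choroid in Fischer344 rats, all labelled wild type (WT). Each tissue had 3 libraries from untreated young rats (4 months old in the labels and 3 months in the paper's figure legends), 3 from untreated aged rats (24 months old) and 3 from aged rats given 5 mg/kg 8-AG daily in drinking water for 8 weeks up to 24 months of age. Cornea, iris and lens were removed, the neural retina was taken first, and RPE/choroid was washed from the remaining eye cup. The 3 retina libraries of 8-AG-treated rats are labelled total RNA and the other 15 libraries polyA RNA, so in retina that label and the treatment cannot be told apart. The numbers in the RPE/choroid labels are shared by young libraries 1 and 2 and by aged libraries 1 and 2, which differ in the letter L or R, so those pairs may be both eyes of an animal. Where that is so, p-values measure in part the spread between eyes.

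Retina libraries held 12283473 to 15644369 counts and RPE/choroid libraries 28573828 to 48203050. Levels are CPM, the share of a library's counts scaled to a common total after TMM correction, given as mean ± SD over the 3 libraries of a group, and member levels are not compared between genes, whose lengths were not used, or between tissues, which were prepared differently. Following the study's criteria, a gene is called where edgeR gives over 1.5-fold change and an unadjusted P below 0.05. Each adjusted p covers every gene in that test. In bulk tissue, fewer cells of a type and less RNA per cell cannot be told apart.

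RPE/choroid library 1 of the 8-AG group stood apart from the other 8 RPE/choroid libraries. Its 12 rod photoreceptor genes summed to 56280 CPM against 617 to 20040 CPM in the others. Its 13 endothelial genes summed to 793.5 CPM against 4785 to 9981 CPM, its 12 RPE and pigment genes to 6875 CPM against 15390 to 32510 CPM, and its 6 fibroblast genes to 1097 CPM against 4264 to 11010 CPM. Its 16 surface epithelium genes (keratins, Epcam, Elf3 and others) summed to 2399 CPM, against 530.3 CPM in 8-AG library 3 and 110.2 to 309.7 CPM in the other 7. Krt15, Krt4 and Krt13, keratins of stratified epithelia, stood at 747.2, 508.5 and 322.4 CPM in library 1 and at most 7.03, 3.20 and 3.80 CPM in the untreated libraries. Krt12, the keratin of the corneal epithelium, stood at 125.2 CPM in library 3 and at most 1.90 CPM in the other 8. Cdh1 alone made up 92.3 to 298.4 CPM of that list's sum in the untreated libraries and 267.5 CPM in 8-AG library 2, most of the sum in each. Members and lists that rest on libraries 1 and 3 are also given without them below.

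In RPE/choroid of 8-AG-treated against untreated aged rats, Cldn3, Cldn4, Cldn7 and Cldn23 were far higher in library 1 and not in all treated libraries. Of Cldn3, Cldn4 and Cldn7, claudins of many barrier epithelia, Cldn4 alone passed the expression filter. Cldn1 went the other way, lowest of the 9 libraries in 8-AG libraries 1 and 3, at 27.1 and 27.6 CPM. Cldn4, Cldn2 and Ocln were called higher, at log2 fold changes of 5.52, 2.35 and 0.89, and no member had an adjusted p under 0.05. The 3 calls were among 7 members that passed the expression filter, and 1.65% of the 16257 genes tested were called in either direction, 1.24% higher and 0.418% lower. Without 8-AG libraries 1 and 3, none of the 7 was called. With the aged libraries that share a label number summed, none was called either, at 5.29, 2.16 and 0.82 for the same 3 genes.

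**Figure D1:**
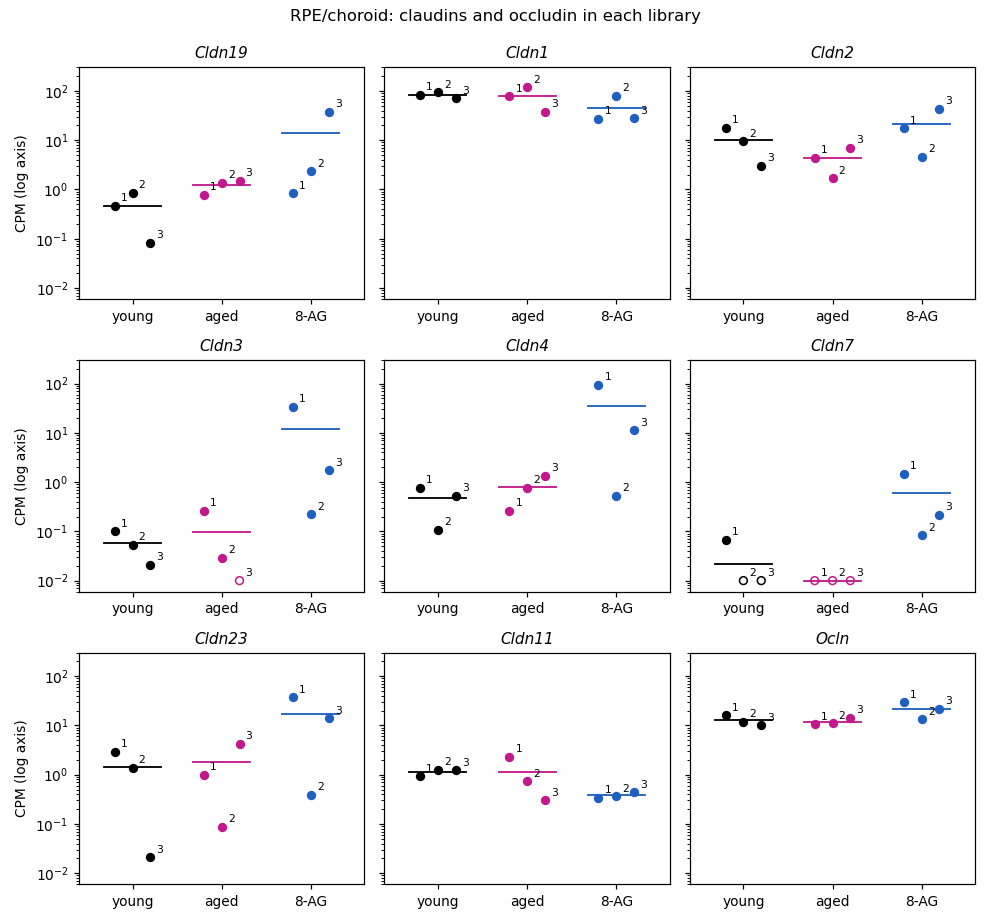
CPM on a log axis of 9 members in each RPE/choroid library, by group; numbers are the library numbers, lines are group means, and open circles and the line among them stand for 0 counts; Cldn5, at 0 throughout, is not drawn. Cldn3, Cldn4, Cldn7 and Cldn23 were highest in 8-AG library 1 and Cldn2 and Cldn19 in 8-AG library 3, while 8-AG library 2 was within the untreated range for 7 of the 9.

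Cldn4 stood at 94.1, 0.528 and 11.2 CPM in 8-AG libraries 1, 2 and 3. The aged libraries held 0.258, 0.766 and 1.35 CPM, and the young libraries 0.767, 0.108 and 0.523 CPM. Treated libraries 1 and 3 were above all 6 untreated libraries and library 2 was within their range, so the groups overlapped. Library 1 alone held 88.9% of the group's summed CPM. The log2 fold change against aged was 5.52 ± 1.90 (SE) and the adjusted p 1.0. Without library 1 it was 2.89 and not called, without library 3 it was 5.89 and called, and without both it was -0.58.

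Cldn3, the other claudin of that chromosomal pair, stood at 34.2, 0.222 and 1.75 CPM in the 8-AG libraries. Aged libraries held 0.258, 0.0295 and 0 CPM, which is 9 counts in all, and young libraries 0.10, 0.0539 and 0.0209 CPM, which is 6 counts in all. Cldn3 failed the expression filter, since too few libraries reached its minimum. With no filter it was called, at a log2 fold change of 6.95 against aged (adjusted p = 0.9999) and 7.71 against young (adjusted p = 0.9988). All 3 treated libraries were above all young libraries, and library 1 held 94.6% of the group's summed CPM. Library 2, the treated library left without 1 and 3, was within the range of the aged libraries.

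Cldn7 was close to absent outside the treated group. It had 48, 3 and 10 counts in the 8-AG libraries, 0 in each aged library, and 2, 0 and 0 in the young libraries. With a floor of 3 counts over the aged group, it was at least 16.9-fold higher with 8-AG, and library 1 held 83.2% of the group's summed CPM. Library 2 alone, at 3 counts, was at the floor. It too failed the filter, and with none it was called against aged (adjusted p = 0.9999). Cldn7 was the 1 member of 10 whose treated and aged libraries did not overlap, and it was higher. Of genes that passed the filter, which Cldn7 did not, 3.96% did not overlap, 2.1% higher and 1.86% lower. The 7 members that passed it all overlapped.

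Cldn23 is a lesser known claudin of epithelia. It stood at 37.3, 0.389 and 13.9 CPM with 8-AG, 1.0, 0.0884 and 4.22 CPM in aged and 2.94, 1.38 and 0.0209 CPM in young libraries. Treated libraries 1 and 3 were again the highest of the 9. Against aged its log2 fold change was 3.33 ± 1.83 (SE), not called, with an adjusted p of 1.0, and without libraries 1 and 3 it was -2.17. The young libraries alone spanned 0.0209 to 2.94 CPM.

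Claudin-2 differs from these in function, as a pore. Cldn2 stood at 17.6, 4.56 and 43.4 CPM with 8-AG, and 4.42, 1.68 and 6.95 CPM in aged libraries. Young libraries held 17.7, 9.49 and 3.03 CPM, so young library 1 was as high as treated library 1. Against aged its log2 fold change was 2.35 ± 0.93 (SE), called, with an adjusted p of 1.0. Against young it was 1.12 ± 0.97 (SE) and was not called. Without libraries 1 and 3 it was 0.07 against aged and -1.14 against young.

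Cldn19 followed library 3 and not library 1. The 8-AG libraries held 0.840, 2.36 and 38.2 CPM, and library 3 carried 92.3% of the group's summed CPM. Aged libraries held 0.774, 1.36 and 1.52 CPM and young libraries 0.467, 0.863 and 0.0836 CPM. The lowest, young library 3, had 4 counts of Cldn19 beside RPE and pigment genes that summed to 29890 CPM. In library 1, where rod genes were highest, Cldn19 was within the range of the aged libraries. Its log2 fold change against aged was 3.50 ± 1.49 (SE), with an adjusted p of 1.0, and it was not called. It was 0.40 without library 3, 4.06 and called without library 1, and 0.96 and not called without both.

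RPE and pigment genes differed among themselves across the treated libraries. Their 12-gene sum was highest of the 9 in library 3, at 32510 CPM, with 31770 CPM in aged library 2. Rpe65, the isomerase of the visual cycle, stood at 611.7, 166.9 and 107.6 CPM in the 8-AG libraries, against 26.7 to 334.1 CPM in the untreated ones. Tyrp1, a melanin enzyme, stood at 343.0, 4563 and 6376 CPM, against 1790 to 5383 CPM in the untreated ones. Library 3 was thus the highest of the 9 for Tyrp1 and inside the untreated range for Rpe65. The part of surface epithelium or pigment cells in the Cldn19 value was not tested.

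Cldn1 and Ocln moved less. Cldn1 stood at 27.1, 80.1 and 27.6 CPM with 8-AG, 78.6, 119.8 and 38.3 CPM in aged and 84.7, 93.8 and 71.4 CPM in young libraries. Treated libraries 1 and 3 were the lowest of the 9, the reverse of their place for Cldn4. The log2 fold change against aged was -0.80 ± 0.61 (SE), not called, and 0.02 without libraries 1 and 3. Ocln stood at 29.7, 13.4 and 22.0 CPM with 8-AG, 10.6, 10.96 and 14.3 CPM in aged and 16.2, 11.9 and 10.2 CPM in young libraries. Its log2 fold change against aged was 0.89 ± 0.36 (SE), called, with an adjusted p of 1.0, and 0.17 without libraries 1 and 3.

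**Figure D2:**
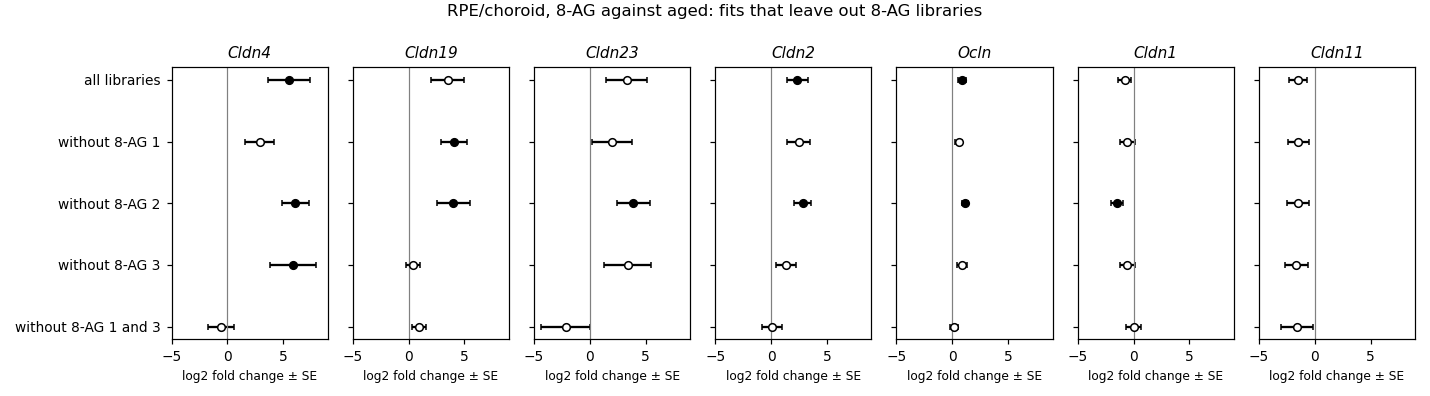
Log2 fold change ± SE of the 7 members tested in 8-AG against aged RPE/choroid, with all 6 libraries and with 8-AG libraries left out; filled points are called, and the fit without 1 and 3 has 1 treated library, assumed to vary like the others. Cldn4 fell from 5.52 to -0.58 and Cldn19 from 3.50 to 0.40 as libraries 1 and 3, or library 3, were left out.

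Cldn11, the myelin claudin, was lower in RPE/choroid of aged rats given 8-AG than of young rats, in every treated library. Those groups differ in both age and treatment, which cannot be told apart. The 8-AG libraries held 0.342, 0.361 and 0.437 CPM and the young libraries 0.934, 1.27 and 1.23 CPM, with no overlap. The log2 fold change was -1.58 ± 0.35 (SE), called, with an adjusted p of 0.9998. It was -1.71 to -1.49 when each library was left out in turn, called in 6 of 6 fits, and -1.66 and still called without 8-AG libraries 1 and 3. DESeq2 gave it an adjusted p of 0.0303. Aged libraries spread from 0.304 to 2.29 CPM, around both groups, and against aged the log2 fold change was -1.51 ± 0.79 (SE) and not called. The counts are small, 44 over the treated group and 134 over the young.

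Myelin genes did not run with it in all libraries. The 10 myelin genes summed to 188.7, 1181 and 687 CPM in the 8-AG libraries and 586.7 to 743.1 CPM in the young, so treated library 2 was above all young libraries in myelin and below them in Cldn11. Treated library 1 was below all young libraries in both. Of 9 myelin genes tested against young, 6 were higher and 3 lower. Of the 9, 2 were called, both higher, where 1.71% of all genes were called higher. Mag, called there, had under 10 counts in every young library and passed the filter through the treated group. Mbp, myelin basic protein, stood at 26.8, 201.5 and 72.0 CPM with 8-AG and 13.4 to 28.6 CPM in young.

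The 8-AG group set against young RPE/choroid gave 3 calls among 7 members tested, where 1.99% of the 16215 genes tested were called in either direction. These groups differ in age as well as treatment, which cannot be told apart here. Cldn4 (log2 fold change 6.25 ± 2.01 SE) and Cldn19 (4.88 ± 1.79 SE) were higher, where 1.71% of genes were called higher, and Cldn11 was lower, where 0.278% were. Of all 10 members, Cldn3 and Cldn7 did not overlap the young group and were higher, and Cldn11 did not and was lower. Cldn3 and Cldn7 failed the filter, so of the 7 members tested 0 were apart and higher and 1 was lower. Of genes tested, 2.82% were apart and higher and 3.11% lower, 5.94% in either direction. This comparison and the one against aged share their treated libraries. Without 8-AG libraries 1 and 3, Cldn11 was the 1 call left, and the log2 fold change of Cldn4 was 0.19 and that of Cldn19 was 2.33. With the young libraries of a shared label number summed, Cldn11 (-1.62) was called, and Cldn4 (6.24) and Cldn19 (5.14) were not. Cldn3 (7.85) then passed the filter and was called. With 6 counts over the young group, it passed through the treated group, so that call is no support.

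Between aged and young RPE/choroid, no member was called of the 7 tested, and none of the 10 had groups apart. Of all genes, 1.35% were called, 0.717% higher and 0.636% lower, and 7.1% had groups apart, 2.98% higher and 4.12% lower. No gene had an adjusted p under 0.05 in edgeR, 341 of 16047 had an unadjusted P under 0.05, and DESeq2 gave 34 with an adjusted p under 0.05. The largest member differences were Cldn19 at a log2 fold change of 1.37 ± 0.79 (SE) and Cldn2 at -1.22 ± 0.76 (SE). Without young library 3, which held the lowest Cldn19, Cldn2 and Cldn23 of its group, Cldn2 was called lower, at -1.66, and Cldn19 was 0.84. Without young library 1, Cldn2 was -0.54 and not called.

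Ocln and Cldn1 gave the narrowest comparisons with age. Ocln was 11.9 ± 2.04 CPM in aged and 12.7 ± 3.10 CPM in young, a log2 fold change of -0.10 ± 0.24 (SE). Cldn1 was 78.9 ± 40.8 CPM in aged and 83.3 ± 11.3 CPM in young, a log2 fold change of -0.08 ± 0.41 (SE). The other tested members had an SE of 0.73 or more, which leaves changes of several fold undetectable with these libraries.

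**Figure D3:**
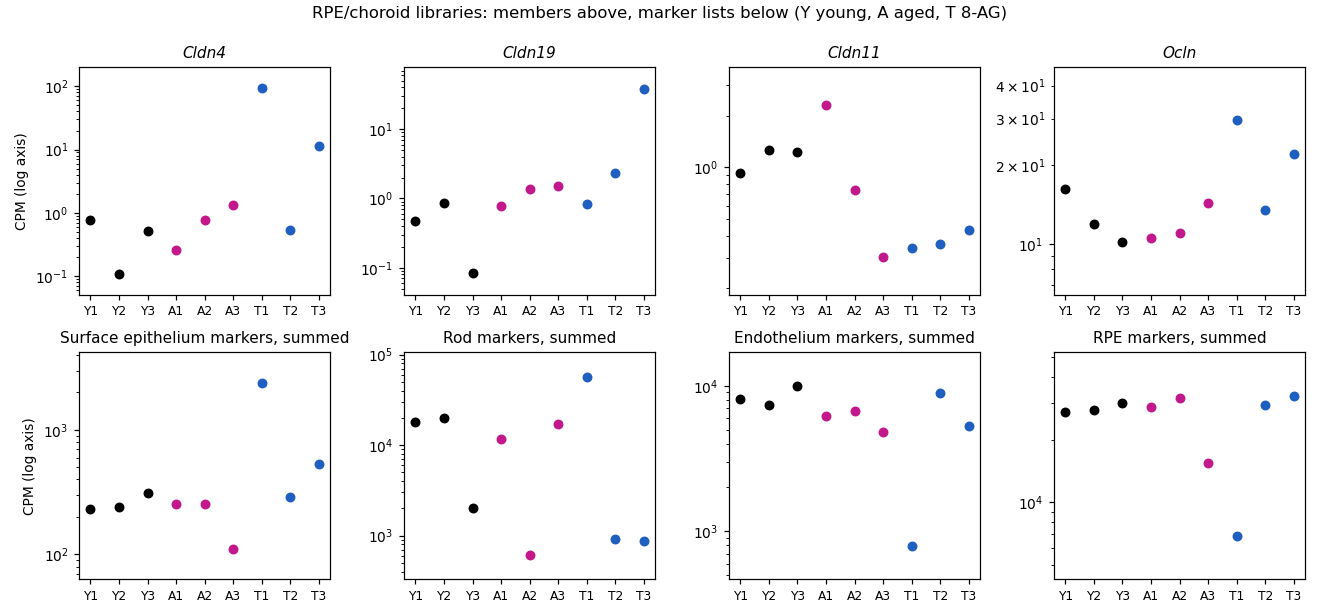
CPM on a log axis of 4 members (top) and of 4 summed marker lists (bottom) in the 9 RPE/choroid libraries, in the order young, aged and 8-AG. 8-AG library 1 was highest for Cldn4, Ocln, surface epithelium and rod genes and lowest for endothelial and RPE genes, while 8-AG library 3 was highest for Cldn19.

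Surface epithelium genes summed highest in 8-AG libraries 1 and 3, where Cldn3, Cldn4, Cldn7 and Cldn23 were also highest and Cldn1 was lowest. Of 13 surface epithelium genes tested in 8-AG against aged RPE/choroid, 9 were called higher and 0 lower, where 1.24% of all genes were called higher. Of all 16 on the list, 3 (Epcam, Krt12 and Lypd3) were higher in all 3 treated than in all 3 aged libraries. These were among the 13 tested, and 2.1% of all genes tested were apart in that direction. The 13 had a median log2 fold change of 5.02, and that of all genes was 0.01. Without 8-AG libraries 1 and 3, 0 of 13 were called and the median was 0.19. Krt12 stood at 42.5 ± 71.6 CPM with 8-AG and 0.197 ± 0.130 CPM in aged, and Lypd3 at 19.6 ± 29.5 and 0.869 ± 0.256 CPM. Over the 9 libraries, the genes most like Cldn4 in log2 CPM, of 12041 compared, were Perp (Pearson r = 0.977), a junction protein of stratified epithelia, MGC105649 (0.968), Upk3bl1 (0.964), Krt13 (0.96) and Bicdl2 (0.957). These libraries share depth and tissue makeup, and a single high library raises such an r.

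The genes most like Cldn19 were others: Spcs3 (r = 0.928), Duoxa1 (0.923), Ccp110 (0.906), Fuca2 (0.9) and Adora2b (0.897). Most like Cldn11 were Ghdc (0.905), Zfp426 (0.87), Slc43a1 (0.864), Zfp566 (0.85) and Slc2a5 (0.841). None of the 10 is in the surface epithelium or myelin lists. The part of surface epithelium in the claudin values was not tested. In 8-AG library 2 those genes summed to 288.0 CPM, against 110.2 to 309.7 CPM in the untreated libraries. In that library Cldn1, Cldn2, Cldn3, Cldn4, Cldn11, Cldn23 and Ocln were within the untreated range, and Cldn19 (2.36 against at most 1.52 CPM) and Cldn7 (0.0833 against at most 0.0667 CPM, on 3 and 2 counts) were above it. Lens genes moved too: 6 of 10 tested were called higher, where 1.24% of all genes were. Of the 6, Mip had under 10 counts in every aged library and passed the filter through the treated group. The lens list summed to 257.0, 50.9 and 252.2 CPM in 8-AG libraries 1, 2 and 3 against 21.5 to 57.2 CPM in aged. Without libraries 1 and 3, 0 of 10 were called. Against young, 0 of 10 were called, and young library 2 held 753.2 CPM.

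Cldn5, the claudin of vessels, had 0 counts in all 9 RPE/choroid libraries. Its floor of 3 counts is 0.0627 to 0.101 CPM by library. Endothelial genes were well measured in the same libraries: Plvap, the diaphragm protein of fenestrated capillaries, stood at 119.5 CPM in 8-AG library 1 and 1549 to 3675 CPM in the others, and Cdh5, the cadherin of endothelium, at 26.4 and 153.0 to 384.0 CPM. Of 9712 genes at or above the mean retina level of Cldn5 (11.4 CPM) and listed in both tissues, 52 (0.535%) were at 0 in every RPE/choroid library. Whether the counting of RPE/choroid reads covered Cldn5 was not tested, so the 0 is given as listed.

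**Figure D4:**
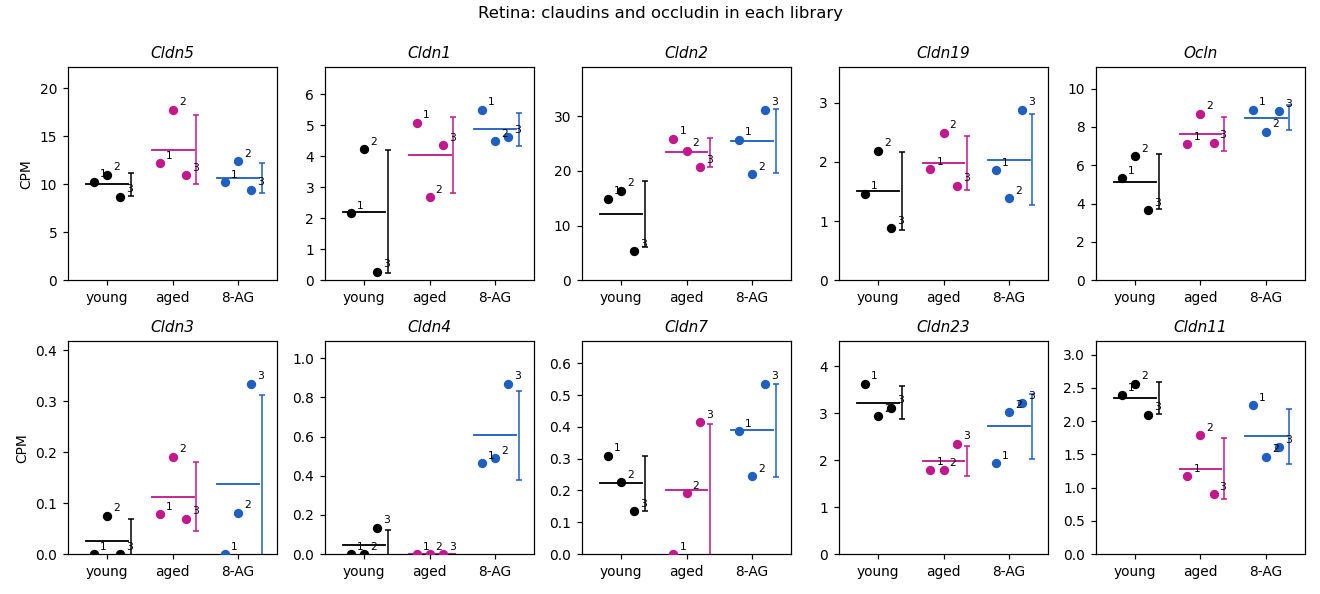
CPM of all 10 members in each retina library by group, on linear axes from 0; numbers are library numbers, lines group means and bars SD (n = 3), cut off at 0. Cldn11 and Cldn23 were lower and Cldn2 and Ocln higher in all 3 aged than in all 3 young libraries, and Cldn4 was above 0 in all 3 8-AG libraries.

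In aged against young retina, Cldn11 and Cldn23 were called lower and none was called higher, 2 of the 7 members tested, where 8.84% of 14588 genes were called in either direction, 6.45% higher and 2.39% lower. No member had an adjusted p under 0.05, which 14.6% of genes had. DESeq2 called neither of the 2 and called Cldn2 higher (adjusted p = 0.214). Rod and lens genes moved in the same comparison. Of 12 rod genes 7 were called lower, with sums of 33940 to 38530 CPM in aged and 54040 to 58940 CPM in young. The 11 lens genes summed to 17.5 to 24.6 CPM in aged and 160.5 to 6588 CPM in young. Of 10 lens genes tested 7 were called lower, but 6 of the 10 had under 10 counts in every aged library and passed the filter through the young group. Their part in the member values was not tested.

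Cldn11 stood at 1.17, 1.79 and 0.899 CPM in aged and 2.39, 2.56 and 2.1 CPM in young retina, with no overlap. The log2 fold change was -0.85 ± 0.30 (SE), with an adjusted p of 0.0905, and it was called in 3 of 6 fits that left out a library. Cldn23 stood at 1.80, 1.79 and 2.35 CPM in aged and 3.62, 2.94 and 3.11 CPM in young, again apart. Its log2 fold change was -0.70 ± 0.23 (SE), with an adjusted p of 0.0717, and it was called in 5 of 6 such fits. Both rest on 13 to 47 counts per library. Myelin genes gave no single direction here. Of 6 tested 3 were higher and 3 lower with age, and their median was 0.08 on the log2 scale. The 10 summed to 67.9 to 73.5 CPM in aged and 55.1 to 64.1 CPM in young retina, and the 1 call was Cnp, a myelin enzyme, higher at 39.6 ± 4.98 CPM in aged and 24.2 ± 0.822 CPM in young (adjusted p = 0.00144). Mbp was lower in all 3 aged libraries, as Cldn11 was, at 11.2 ± 0.437 CPM against 12.6 ± 1.0 CPM (log2 fold change -0.17 ± 0.11 SE, not called).

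Ocln was higher in every aged retina library, at 7.10, 8.67 and 7.19 CPM against 5.32, 6.47 and 3.65 CPM in young. Its log2 fold change was 0.58 ± 0.21 (SE), with an adjusted p of 0.098 (0.157 in DESeq2), and it lay just under the fold limit. It was called in 4 of 6 fits that left out a library, and was 0.37 without young library 3. Cldn2 was also higher in every aged library, at 25.9, 23.7 and 20.7 CPM against 14.9, 16.3 and 5.27 CPM in young. Its log2 fold change was 0.95 ± 0.43 (SE), with an adjusted p of 0.234, and 0.58 without young library 3. Of the 10 members, 2 had groups apart and higher and 2 apart and lower, all among the 7 tested. Of all genes tested, 18.1% were apart and higher and 17.2% lower, 35.3% in all.

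Young library 3 was the lowest of the 9 for Cldn1, Cldn2, Cldn19 and Ocln. Its surface epithelium genes summed to 10.3 CPM against 42.7 and 63.0 CPM in young libraries 1 and 2, and its 12 RPE genes to 351.2 CPM against 414.7 and 466.8 CPM. Aged library 2 was lower still in that RPE sum, at 308.5 CPM, with 496.2 and 458.9 CPM in aged libraries 1 and 3. With age 1 of the 12 RPE genes was called higher and 0 lower (median log2 fold change 0.83), and with 8-AG 0 of 11 tested were called (0.69). Cldn1 was 4.03 ± 1.23 CPM in aged and 2.21 ± 1.97 CPM in young retina (log2 fold change 0.87 ± 0.79), and Cldn19 1.98 ± 0.459 and 1.51 ± 0.654 CPM (0.41 ± 0.36). Without young library 3 the log2 fold changes of Cldn1 and Cldn19 were 0.32 and 0.12, and without young library 2 they were 1.75 and 0.77. Carry-over of RPE into retina libraries was not tested.

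Cldn5, the claudin of the retinal vessels, stood at 12.2, 17.7 and 10.9 CPM in aged and 10.3, 10.99 and 8.72 CPM in young retina. Its log2 fold change was 0.45 ± 0.19 (SE), with an adjusted p of 0.147, under the fold limit, and 0.21 without aged library 2. Of 13 endothelial genes tested, 5 were called higher with age and 0 lower, where 6.45% of all genes were called higher. The median of the 13 was 0.65 on the log2 scale. Their summed level did not follow, at 785.2, 672.5 and 686.9 CPM in aged and 732.4, 696.8 and 764.6 CPM in young libraries. Kdr, a receptor of vascular endothelial growth factor, made up most of each sum, at 456.2 to 621.7 CPM in aged and 582.2 to 651.1 CPM in young. Plvap rose from 2.51 ± 0.572 to 7.83 ± 0.733 CPM (adjusted p = 0.000799), and Vwf, von Willebrand factor, stood at 51.7 ± 24.2 CPM in aged and 22.1 ± 2.63 CPM in young (adjusted p = 0.111). Erg and Egfl7, both of endothelium, were called higher as well, with log2 fold changes of 0.92 and 1.06 and adjusted p of 0.0644 and 0.0575.

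In 8-AG against aged retina, none of the 7 members tested was called, where 0.957% of 14631 genes were called, with 0.526% higher and 0.431% lower. An adjusted p under 0.05 was reached by 0.0205% of them. All had an adjusted p of 0.996. Cldn5 was 10.7 ± 1.54 CPM with 8-AG and 13.6 ± 3.63 CPM in aged (log2 fold change -0.36 ± 0.20). Cldn23 was 2.72 ± 0.689 and 1.98 ± 0.323 CPM (0.46 ± 0.28), and Cldn11 1.77 ± 0.412 and 1.28 ± 0.455 CPM (0.45 ± 0.34). Ocln, Cldn1, Cldn2 and Cldn19 had log2 fold changes of 0.14, 0.27, 0.12 and 0.04.

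Cldn4 was the 1 member of 10 whose 8-AG and aged retina libraries did not overlap. It had 6, 6 and 13 counts with 8-AG, 0 in each aged library, and 0, 0 and 2 in the young. With a floor of 3 counts over the aged group, it was at least 8.91-fold higher with 8-AG. Of genes tested, which leave out Cldn4, 4.83% were apart in that direction, 3.96% in the other and 8.79% in either. The 7 members tested all overlapped. Cldn4 failed the expression filter, and with none it was called, with an adjusted p of 0.107. Its fitted fold depends on the prior count, since the aged group is at 0, and is not given. Cldn3 (0, 1 and 5 counts against 1, 3 and 1) and Cldn7 (5, 3 and 8 against 0, 3 and 6) overlapped.

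Surface epithelium genes were compared in the same retina libraries over all 16 of the list. Of these, 7 were higher in all 3 8-AG than in all 3 aged libraries (Elf3, Krt5, Krt12, Krt14, Krt15, Perp and Sfn) and 0 were lower. Among all genes that passed the filter, 4.83% were apart and higher and 3.96% lower. The list summed to 118.0, 36.7 and 46.3 CPM with 8-AG against 12.9 to 19.4 CPM in aged, and Cdh1 made up 95.9 of the 118.0 CPM. Only 8 of the 16 passed the expression filter, and Elf3, Krt5 and Krt12 had under 10 counts in every aged library, so they passed through the treated group and the 6 calls among the 8, all higher, are no support. Elf3, an epithelial transcription factor, stood at 2.14 ± 0.792 and 0.307 ± 0.0726 CPM (adjusted p = 0.120). Krt5, a basal keratin, stood at 2.44 ± 0.786 and 0.372 ± 0.204 CPM (adjusted p = 0.190), and Krt12 at 6.21 ± 4.23 and 0.294 ± 0.193 CPM (adjusted p = 0.996). In young libraries 1 and 2 the list summed to 42.7 and 63.0 CPM, of which Cdh1 made up 35.5 and 56.5 CPM, with 0 counts of Cldn4 in both. Markers of other tissues moved in the same libraries. Of 11 lens genes 4 (Bfsp2, Cryaa, Cryba1 and Cryba2) and of 6 fibroblast genes 2 (Col1a1 and Dcn) were higher in all 3 8-AG than in all 3 aged libraries, and 0 were lower. Lens genes summed to 1824, 20.1 and 23.7 CPM with 8-AG, so library 1 stood apart, against 17.5 to 24.6 CPM in aged, and fibroblast genes to 56.6, 38.1 and 39.2 CPM against 33.9 to 42.1 CPM. The part of these lists in the Cldn4 value was not tested.

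**Figure D5:**
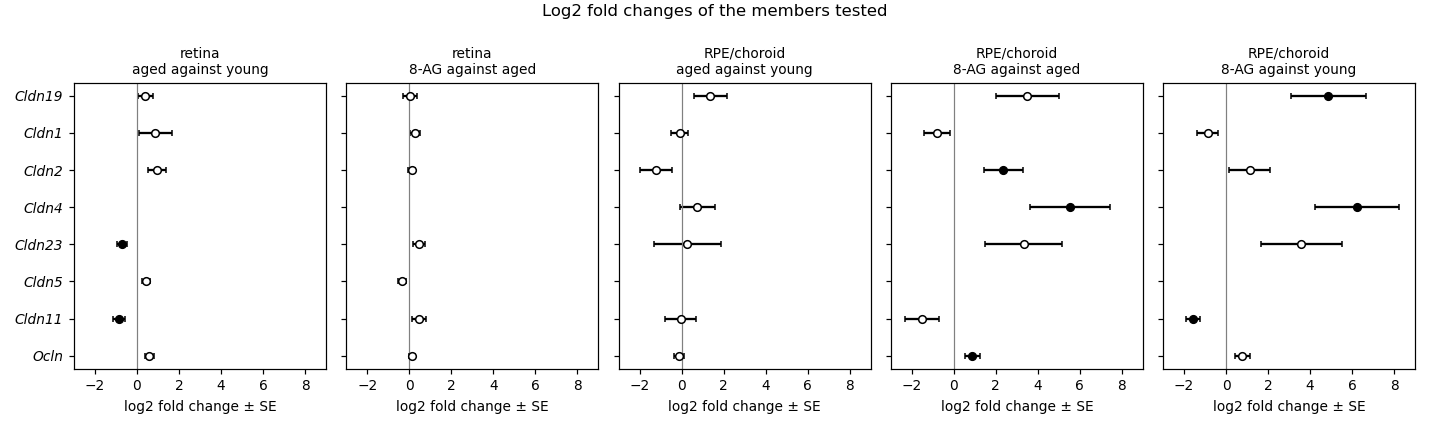
Log2 fold change ± SE (edgeR, 3 against 3 libraries) of each member tested, in the 5 comparisons; filled points are called. Retina points lie within 1 log2 unit of 0, with Cldn11 and Cldn23 called lower with age, and the SE of Cldn4, Cldn19 and Cldn23 in RPE/choroid with 8-AG is 1.49 to 2.01.

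The change of a member was not shown to differ between the tissues. Of the 8 members in that test, Cldn5, at 0 in RPE/choroid, gave no usable value. Cldn4 had 2 counts in young and 0 in aged retina, so its retina change was hardly measured. In a test of that difference, 0 of 8 members had an adjusted p under 0.05 for aging, where 0.167% of 16792 genes had (28), and 0 of 8 for 8-AG, where 0 of 16915 genes had. At an unadjusted P under 0.05, edgeR gave 1 member for aging and 1 for 8-AG, both times Cldn2, and limma voom gave none. The aging change of Cldn2 was lower in RPE/choroid than in retina by a log2 difference of -2.16 ± 0.93 (SE; adjusted p = 0.579), and by -1.48 without young RPE/choroid library 1. The 8-AG change of Cldn2 was higher there by 2.23 ± 0.98 (SE; adjusted p = 1.0). That was 1.22 without 8-AG RPE/choroid library 3 and -0.05 without libraries 1 and 3. In the last fit Cldn4 was the 1 member at an unadjusted P under 0.05 (difference -7.30 ± 1.90 SE, adjusted p = 0.779), a value that depends on the prior count, since aged retina had 0 counts. Both differences share the aged libraries.

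Of 17 other claudins, 8 could be paired with an identifier. In aged against young retina, 1 of 4 tested was called, Cldn9, which was 7.66 ± 0.555 CPM in aged and 2.80 ± 0.845 CPM in young (log2 fold change 1.45 ± 0.22, adjusted p = 0.00249). Its libraries were 7.65, 8.23 and 7.12 CPM against 3.55, 1.88 and 2.97 CPM, with no overlap. Cldn12 was 110.4 ± 8.97 CPM in aged and 133.5 ± 1.30 CPM in young retina (log2 fold change -0.27 ± 0.07, adjusted p = 0.0231), under the fold limit. In RPE/choroid none of the 5 tested was called in any comparison. There Cldn9 stood at 33.6, 1.42 and 3.91 CPM with 8-AG and 9.26, 1.53 and 32.3 CPM in aged, and its highest library in each group was also the highest in rod genes (56280 and 16910 CPM).

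Of 28 tight junction partners with an identifier, some of which anchor the claudins to the cytoskeleton or join cells at corners, 26 were tested in retina. With age 2 were called higher and 1 lower (3 of 26, where 8.84% of all genes were called), and 7 had an adjusted p under 0.05, where 14.6% of all genes had. The median log2 fold change of the 26 was -0.05. Marveld2, the tricellulin of corners between 3 cells, was 3.96 ± 0.232 CPM in aged and 2.07 ± 0.638 CPM in young (log2 fold change 0.94 ± 0.26, adjusted p = 0.0378). F11r, a junctional adhesion molecule, was 5.20 ± 0.634 and 3.31 ± 1.01 CPM (0.65 ± 0.24, adjusted p = 0.103). Ybx3, a transcription factor bound at junctions, was lower, at 193.1 ± 11.8 and 317.4 ± 15.7 CPM (-0.72 ± 0.07, adjusted p = 0.000196). With 8-AG 0 of 26 were called in retina.

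In RPE/choroid 0 of 27 partners were called with age. With 8-AG, 1 of 27 was called against aged and 2 against young, all higher. Ildr1, a protein of those corners, was the call against aged (log2 fold change 2.90 ± 1.07, adjusted p = 1.0) and, with Crb3, those against young. It stood at 8.09, 0.444 and 2.34 CPM with 8-AG, 0.387, 0.560 and 0.540 CPM in aged and 0.434, 0.0270 and 0.126 CPM in young. Libraries 1 and 3 were high and library 2 was not, the order seen for Cldn4. Without libraries 1 and 3, no partner was called against aged or young, and Ildr1 was at a log2 fold change of -0.15 against aged and 1.22 against young. Tjp1, the scaffold ZO-1, stood at 73.9, 94.4 and 102.3 CPM with 8-AG and 38.5 to 84.4 CPM in aged (log2 fold change 0.55 ± 0.32, not called).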

How the data were processed

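For retina, the authors deposited expected counts per gene from RSEM, which were rounded here to whole numbers (11.5% were not whole). For RPE/choroid, the authors deposited whole-number read counts. The submitters' processing notes name Bowtie2 2.1.0, RSEM 1.2.15, edgeR and the Rnor_6.0 build for all samples. They give the tools no role, and the whole-number RPE/choroid counts do not show whether RSEM made them. RNA of RPE/choroid was scarce, and its libraries came from a polyA protocol that enriches complete transcripts. Symbols were paired with identifiers through the symbol columns of the authors' RPE/choroid tables and through the retina signal (TMM-scaled values by symbol) that the authors deposited, matched to within 1 count or 1% of the highest value. Of 138 list genes, 12 stayed without an identifier (Pecam1, Prph2, Pals1 and 9 other claudins). The authors' tables also hold their own fold changes and p-values, which were not used.

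Every pair of groups was modelled on its 6 libraries alone in edgeR 4.0.16 under R 4.3.3 (filterByExpr, TMM, estimateDisp, glmQLFit with robust=TRUE, glmQLFTest), with Benjamini-Hochberg adjustment. The difference between tissues was an interaction term. Alternatives were RLE size factors, DESeq2 1.42.0, limma 3.58.1 (interaction), no filter, a minimum of 10 counts per library, 1 fit over the 3 groups of a tissue, robust=FALSE, unrounded counts, the replicate block, summed libraries of a shared label number, an adjusted call rule and each library left out. The scripts were tested on simulated data. An exact permutation test of 3 against 3 libraries cannot give a p under 0.1. Floors cover counting error only.

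The members and lists were chosen with earlier results of these data known. All members are named. From the lists, genes called with groups apart could be named, at most 6 per list and comparison in order of P. Krt4, Krt13, Krt14, Cdh1, Sfn, Rpe65, Tyrp1, Tjp1, Kdr, Bfsp2, Cryaa, Cryba1, Cryba2, Dcn, Cldn12 and Crb3 in any comparison, and Krt15, Epcam, Mbp, Plvap, Cdh5, Cldn9 and Ildr1 outside the comparison that named them, were chosen after their values were seen. Promoters came from RefSeq (GRCr8), where 7 of 10 members matched. Cldn2, Cldn4 and Cldn23 have no entry. Python 3.11.15, pandas 2.3.3 and matplotlib 3.10.9 made tables and figures.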

Additional observations from a re-analysis of the deposited data

How the results depend on the processing

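Counts of members called moved with the processing in every comparison. In retina with age, 2 were called, and 1 with DESeq2 (Cldn2), 4 with the replicate number as a block, 0 at an adjusted p under 0.05, and 2 to 3 with a library left out. In retina with 8-AG, 0 were called, and 1 with no filter (Cldn4) and 0 to 1 when each library was left out. In RPE/choroid with age, 0 were called, and 0 to 1 with a library left out. In RPE/choroid 8-AG against aged, 3 were called, and 5 with DESeq2, 6 with no filter, 1 at 10 counts or more in every library, 0 with libraries of a shared label number summed, 0 without 8-AG libraries 1 and 3 (an alternative chosen after seeing the data, in which the lone treated library is assumed to vary like the others), 0 at an adjusted p under 0.05, and 0 to 7 with a library left out. The 0 came without aged library 2, a single call without aged library 1 (Cldn3), aged library 3 (Cldn11), 8-AG library 1 (Cldn19) or 8-AG library 3 (Cldn4), and 7 of 8 tested without 8-AG library 2 (where Cldn3 passed the filter and Cldn1 was lower). Wherever Cldn3 passed the filter, here or against young, it did so through the treated libraries. It had 9 counts over all aged and 6 over all young libraries, so those calls are no support. Against young, 3 were called, and 5 with DESeq2 (2 of them, Cldn11 and Cldn4, also at an adjusted p under 0.05), 5 with no filter, 1 at 10 counts or more (Cldn11), 1 without 8-AG libraries 1 and 3, 0 at an adjusted p under 0.05 in edgeR, and 1 to 6 with a library left out, where a single call (Cldn11) remained without young library 2 or young library 3 and 6 calls came without 8-AG library 2.

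Log2 fold changes turned direction in these cases, none of them called. Without 8-AG libraries 1 and 3 they were -0.58 (Cldn4), -2.17 (Cldn23) and 0.0238 (Cldn1) against aged and -1.87 (Cldn23) and -1.14 (Cldn2) against young. With libraries left out in turn they spanned -0.29 to 0.25 (Cldn19) and -0.0496 to 0.28 (Cldn2) in retina with 8-AG, and -0.25 to 0.10 (Ocln), -1.14 to 0.41 (Cldn11), -1.38 to 1.32 (Cldn23) and -0.52 to 0.26 (Cldn1) in RPE/choroid with age, where Ocln was also 0.0399 with shared label numbers summed. The cause was not tested. Replicate numbers did not pair the libraries, since same-numbered libraries did not all deviate together (r from -0.615 to 0.665 over the 5 comparisons). With them as a block, Cldn23 in RPE/choroid with age was -0.71, and the 3 calls with 8-AG were Cldn1, Cldn2 and Cldn23 against aged (Cldn4 at 3.34 and Ocln at 0.82 were not called) and Cldn1, Cldn4 and Cldn11 against young (Cldn19 at 2.81 was not). The difference between tissues then had an unadjusted P under 0.05 for 3 members with 8-AG (Cldn1, Cldn2 and Cldn23) and 0 with age, none at an adjusted p under 0.05.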
